A study of Homo sapiens with 4 samples.

Results

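The genes described are 56 cyclins, CDKs and genes of replication and mitosis, taken by name from 60483 gene identifiers in the count tables of H9 cells. They were divided by function into 18 regulators of G1 and of entry into S phase, 15 genes of DNA replication and 23 genes of mitosis. H9 (WA09) is an established human embryonic stem cell line. RNA was sequenced in 2 libraries from H9 cells in which SLC35F2, a solute carrier of the cell membrane, had been knocked out (KO), and in 2 libraries from control H9 cells, each placed in its group by its title. The labels give the genotype of each group as SLC35F2 KO or control. How the gene was disrupted, whether the KO libraries come from 1 clone and whether the libraries of a group come from separate cultures were not given in the sources used here. The p-values therefore cover no more than the scatter among these 4 libraries, part or all of which could be technical.

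Assigned reads per library ranged from 27824693 to 37978705. SLC35F2 had 332 and 330 reads in the KO libraries, against 1550 and 964 reads in the control libraries, so the libraries stood on the sides that their titles give. The stem cell markers POU5F1, SOX2, LIN28A and NANOG had at least 19.1 CPM in all 4 libraries (CPM, counts scaled to a common library total). Of 10 markers of pluripotent stem cells, 8 were lowest in KO 2, against 32.3% of all genes. The summed level of the 10 markers was 8818 CPM in KO 1 and 6027 CPM in KO 2, against 8290 and 8497 CPM in the controls. KO 2 also had the largest share of reads in mitochondrially encoded genes (8.97%, with 5.15% to 7.38% in the other libraries) and the smallest share of reads outside annotated features (4.59%, with 7.41% to 10.8% in the others).

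The cell cycle runs on cyclin-dependent kinases (CDKs), which act when bound to cyclins. D-type cyclins with CDK4 or CDK6 and E-type cyclins with CDK2 drive cells out of G1 by phosphorylating the retinoblastoma family, which releases E2F factors. E2F factors activate genes of replication, and a later programme of promoters with CHR and CCAAT elements activates genes of mitosis. Human embryonic stem cells are known for a short G1 phase and for high expression of many of these genes. In RNA from a whole culture, more cells in a phase and more RNA of a gene per cell cannot be told apart.

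No member was called between KO and control. Of the 56 members, 54 passed the filter on low counts, and 0 of these had an adjusted p under 0.05 in edgeR's quasi-likelihood test with Benjamini-Hochberg adjustment over all genes, against 0.0263% of the 19027 genes tested. The adjusted p was at least 0.997 for every tested member. At an unadjusted p under 0.05 in that test the count was 1 of 54 members, against 4.06% of all genes. DESeq2 also called 0 members (against 0.273% of all genes), as did the fit with the replicate number as a block (0.399%). Limma-voom called 0 members, but it called 0 of all genes too. In simulated counts of 18430 genes with the spread of these libraries, the test recovered 2 of 50 genes changed 2-fold and 24 of 50 changed 4-fold. By the GENCODE 29 annotation of GRCh38, the protein-coding genes on which the results turn most are CDKN1B (ENSG00000111276.9, chr12:12715058-12722371, plus strand), CDC6 (ENSG00000094804.8, chr17:40287633-40304657, plus strand), CDC20 (ENSG00000117399.12, chr1:43358955-43363203, plus strand), PLK1 (ENSG00000166851.13, chr16:23677656-23690367, plus strand) and KIF20A (ENSG00000112984.10, chr5:138178719-138187715, plus strand).

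By phase, the mitosis genes stood higher in KO than the other members did. The median log2 fold change (KO over control) was 0.41 over the 23 mitosis genes, 0.06 over the 15 replication genes and 0.09 over the 16 tested G1 regulators, and it was 0.03 over all 19027 genes. The difference between the lists was not tested. The mitosis median rested on 1 library, since it was 0.03 without KO 2 and 0.64 without KO 1. For 7 of 23 mitosis genes (30.4%) every KO value exceeded every control value, against 15.8% of all genes. With upper-quartile factors, with library size only and with quantile normalisation this number was 4 of 23, against 11.4%, 10.2% and 16.4% of all genes. Library size only moved the median of all genes to -0.097, and the mitosis median was then 0.28. In KO 1 alone, 8 of 23 mitosis genes (34.8%) were above both controls, against 35.0% of all genes, and in KO 2 alone 20 of 23 (87.0%), against 38.6%. Only 1 mitosis gene, WEE1, was lower in both KO libraries (4.35%, against 16.3% of all genes). Of the 16 G1 regulators, 1 was higher (6.25%) and 2 were lower (12.5%) in both KO libraries, and of the 15 replication genes 1 was higher (6.67%) and 2 were lower (13.3%). With upper-quartile factors, library size only and quantile normalisation 0 genes of either list were higher, against 11.4%, 10.2% and 16.4% of all genes. Under these scalings 3 replication genes (20.0%) were lower, and 3, 3 and 1 G1 regulators. Of all genes 20.0%, 21.3% and 13.8% were lower. Over all 54 members 9 were higher (16.7%) and 5 were lower (9.26%), against 15.8% and 16.3% of all genes.

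**Figure D1:**
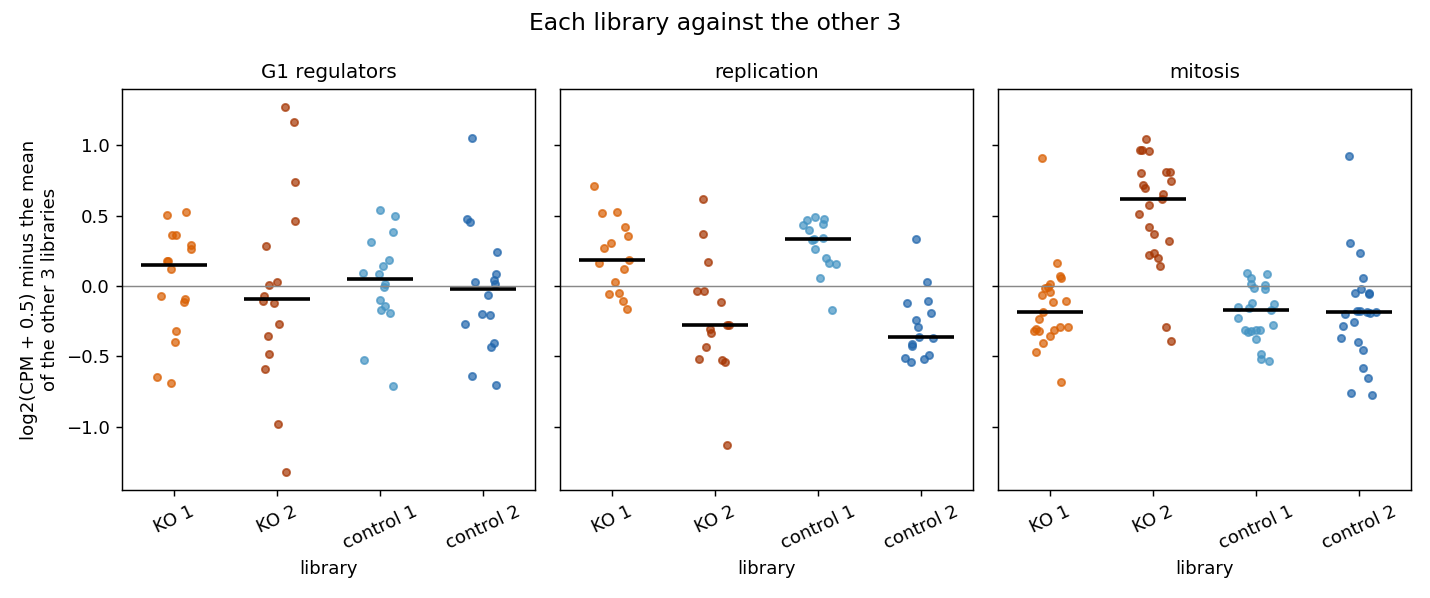
Each point is a tested member, plotted as its log2(CPM + 0.5) in a library minus its mean in the other 3 libraries, by phase list; black bars are medians. The mitosis bar of KO 2 stands at 0.62 and those of the other libraries lie between -0.19 and -0.17, while the replication bars are above 0 in KO 1 and control 1 and below 0 in KO 2 and control 2.

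Set each against the other 3, the libraries differed by phase in other ways than KO against control. Among the mitosis genes the median of log2(CPM + 0.5) minus the mean of the other libraries was -0.19 in KO 1 and 0.62 in KO 2, against -0.17 in control 1 and -0.19 in control 2. KO 2 held the highest level of 20 of the 23 mitosis genes (87.0%), against 33.4% of all genes, and 18 to 20 of them with the other scalings tried. Their lowest level lay in KO 2 for 0 of 23, against 32.3% of all genes, and in KO 1 for 7 of 23, against 24.8%. Among the replication genes the median was 0.19 in KO 1 and -0.28 in KO 2, against 0.33 in control 1 and -0.37 in control 2. Control 2 was above control 1 for 0 of 15 replication genes, against 51.0% of all genes, although it was below for only 13 of 15 with library size only and with quantile normalisation. KO 2 was above KO 1 for 4 of 15 replication genes, against 50.0% of all genes, and for 22 of 23 mitosis genes. The highest level of a replication gene lay in KO 1 for 5 and in control 1 for 7 of 15 genes, against 24.3% and 16.4% of all genes. Its lowest lay in KO 2 for 6 and in control 2 for 9 of 15 genes, against 32.3% and 26.5% of all genes, under the scaling used here. The G1 regulators had medians of 0.15 in KO 1 and -0.09 in KO 2, against 0.05 in control 1 and -0.02 in control 2. Over all genes the medians lay between 0.002 and 0.016. No test was made of 1 library against 3, which has no replicate.

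Summed over the lists, mitosis genes had 3297 CPM in KO 1 and 4814 CPM in KO 2, against 3230 and 3342 CPM in the controls. Replication genes had 3652 CPM in KO 1 and 2755 CPM in KO 2, against 3724 and 2686 CPM in the controls. The ratio of the mitosis sum to the replication sum was 0.903 in KO 1 and 1.75 in KO 2, against 0.867 in control 1 and 1.24 in control 2. Only the KO 2 ratio thus lay outside the range of the controls, and the KO libraries lay farther from each other than the controls did.

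Markers listed for other cell types also differed between libraries. These lists are short, and KO 2 was the highest library for 33.4% of all genes. Of the tested fibroblast markers 3 of 6 were highest in KO 2, and the list summed to 573.5 CPM in KO 1 and 1114 CPM in KO 2, against 547.1 and 880.1 CPM in the controls. Most of this was COL1A1, COL1A2 and THY1, while DCN was at 0 reads in KO 2 and both controls and LUM at 0 in KO 1. The tested markers POSTN and PDGFRA went the other way, with 2 of 6 lowest in KO 2. POSTN had 1.64 and 0.468 CPM in KO, against 2.39 and 1.18 CPM in control. PDGFRA had 2.36 and 0.497 CPM in KO, against 3.50 and 4.59 CPM in control. THY1 alone had 429 and 337 CPM in KO, against 296 and 376 CPM in control. COL1A1 had 46.8 and 552 CPM in KO, against 128 and 300 CPM in control. Whether this sum reflects fibroblasts was not tested. Of the tested neuroectoderm markers 3 of 5 were highest in KO 2 (529 CPM in KO 1 and 927.4 CPM in KO 2, against 466 and 779.9 CPM in the controls). Nearly all of it was NES, an intermediate filament of dividing progenitors, and HES5 was at 0 in both KO libraries. The other tested markers, PAX6 and ZIC1, were lowest in KO 2 (2 of 5). PAX6 had 1.42 and 0.643 CPM in KO, against 1.67 and 0.816 CPM in control. ZIC1 had 0.982 and 0.234 CPM in KO, against 0.663 and 0.479 CPM in control. The mesoderm and endoderm markers summed to 3.564 and 0.7605 CPM in KO, against 4.691 and 6.924 CPM in control, with 0 of 4 tested highest in KO 2. In this list SOX17 and GATA6 were at 0 in KO 2 and MESP1 at 0 in KO 1. Trophoblast and amnion markers summed to 18.22 and 19.19 CPM in KO, against 15.26 and 27.67 CPM in control, with 1 of 5 tested highest in KO 2. The largest part was KRT7, with 17.8 and 16.6 CPM in KO, against 13.7 and 13.8 CPM in control. GATA2 had 8.58 CPM in control 2 and at most 0.504 CPM elsewhere, and TFAP2A had 3.32 CPM in control 2 and at most 0.965 CPM elsewhere. CDX2 was at 0 in both KO libraries, GATA3 in KO 1 and ISL1 in KO 2. The part of these markers, of mitochondrial reads and of unassigned reads in the cell cycle values was not tested.

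**Figure D2:**
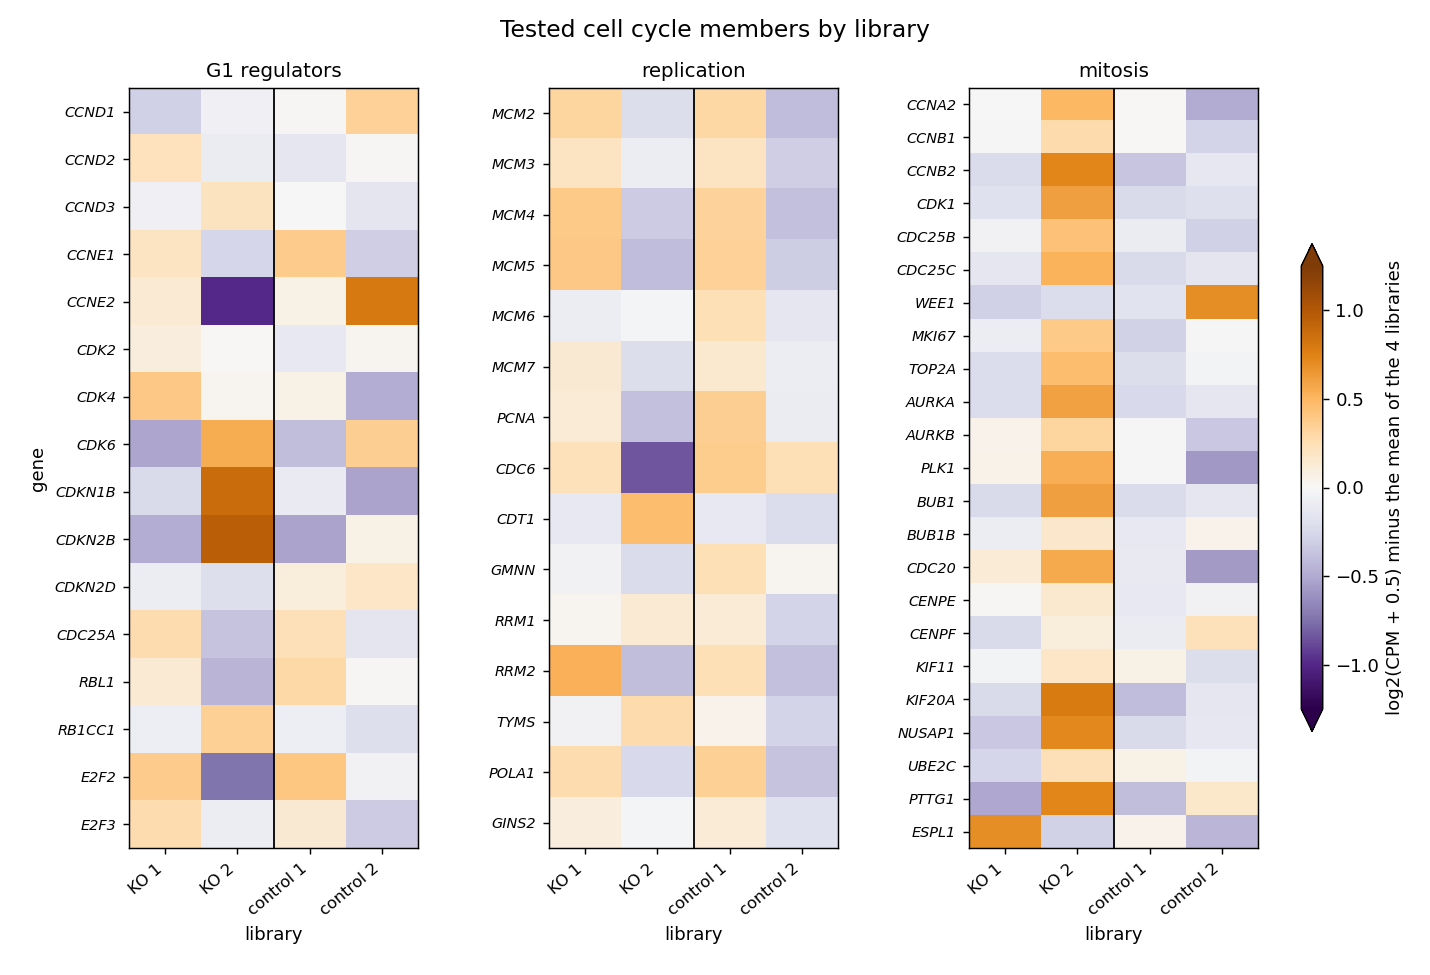
Colour shows log2(CPM + 0.5) of each tested member in each library minus its mean over the 4 libraries, with KO left of the line and control right of it, in lists of 16 G1 regulators, 15 replication genes and 23 mitosis genes. The KO 2 column is the darkest orange for 20 of the 23 mitosis genes, and WEE1, CENPF and ESPL1 are the rows where another library is highest.

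Among the cyclins of the G1 list, CCND1 had the highest level per length. CCND1, which binds CDK4 and CDK6 in response to growth signals, had 93.9 and 112 CPM in KO, against 117 and 147 CPM in control. All KO values lay below all control values, with a log2 fold change of -0.36 (95% interval -0.97 to 0.26). Its relatives overlapped between the groups, with log2 fold changes of 0.14 for CCND2 and 0.17 for CCND3. Per kb of annotated exon and averaged over the 4 libraries, the levels were 24.3 CPM per kb for CCND1, 11.5 for CCND2 and 3.33 for CCND3.

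CDK4, the kinase partner of D-type cyclins, was the most abundant G1 regulator, with a level of 57.2 CPM per kb. It had 233 and 180 CPM in KO, against 185 and 127 CPM in control (log2 fold change 0.40, interval -0.27 to 1.08), and KO 2 lay just below control 1. CDK6, its close relative, had 21.0 and 44.7 CPM in KO, against 22.9 and 39.0 CPM in control. For CDK6 the second library of each group was thus the higher one, and the log2 fold change was 0.09 (interval -0.87 to 1.05). CDK2, the partner of E-type and A-type cyclins, varied little, with 47.3 and 44.6 CPM in KO, against 40.7 and 45.4 CPM in control.

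The E-type cyclins did not share a pattern. CCNE2 had 6.84 and 2.87 CPM in KO, against 6.52 and 11.1 CPM in control, from 188, 98, 246 and 394 reads in the same order. KO 2 was lowest and control 2 highest, and the log2 fold change was -0.88 (interval -2.09 to 0.34). CCNE1 was more abundant and followed the replication genes, with 41.5 and 29.9 CPM in KO, against 46.9 and 29.1 CPM in control.

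CDC25A, the phosphatase that activates CDK2, was the third most abundant G1 regulator per kb (23.0 CPM per kb). It had 113 and 72.5 CPM in KO, against 110 and 84.2 CPM in control. The activating factors E2F2 and E2F3 were also higher in the first library of each group. E2F2, picked out from its values rather than by the rule, had 12.1 and 5.35 CPM in KO, against 12.4 and 8.92 CPM in control (log2 fold change -0.29, interval -1.38 to 0.79). E2F3 had a log2 fold change of 0.18 and RBL1, the retinoblastoma relative p107, one of -0.30, and both overlapped between groups.

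The inhibitor CDKN1B (p27), which binds cyclin E and cyclin A complexes with CDK2, stood out in KO 2. It had 26.3 and 57.3 CPM in KO, against 28.8 and 21.4 CPM in control, from 722, 1959, 1088 and 760 reads in the same order. Only KO 2 lay outside the control range. On the log2 scale KO exceeded control by 0.74 (interval -0.17 to 1.65). Its unadjusted p in edgeR, 0.1, was the smallest of the G1 list. The log2 fold change was 1.20 without KO 1, where KO 2 alone stands for KO, and 0.07 without KO 2. CCNG2, an unconventional cyclin of arrested cells and not a member, had a similar order, with 15.7 and 35.5 CPM in KO, against 16.6 and 14.5 CPM in control.

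INK4 inhibitors, which bind CDK4 and CDK6, were scarce. CDKN2A had 3 and 9 reads in KO, against 0 and 3 reads in control, and CDKN2C had 0 and 5 reads in KO, against 5 and 0 reads in control. Neither passed the filter on low counts, and no fold is given for them. CDKN2B had 2 and 36 reads in KO, against 2 and 12 reads in control, which gave a log2 fold change of 1.64 with an interval of -0.89 to 4.16. It passed the filter through the second library of each group and had a log2 fold change of -1.35 without KO 2. CDKN2D had 57 and 64 reads in KO, against 92 and 92 reads in control (2.07 and 1.87 CPM, against 2.44 and 2.59 CPM), and its groups did not overlap. Its log2 fold change was -0.35 (interval -1.51 to 0.80). Exons of CDKN2A overlap the antisense gene CDKN2B-AS1, and reads of such pairs may not be separated here, since the strand setting of the counting was not given. RB1CC1, known mainly as a subunit of the kinase complex that starts autophagy, was the only G1-list gene higher in both KO libraries, with 87.6 and 117 CPM in KO, against 87.3 and 79.8 CPM in control. KO 1 exceeded control 1 there by less than 1 CPM.

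Replication genes were among the most abundant members. PCNA, the sliding clamp of DNA polymerases, had the highest level per length of all members with 168 CPM per kb, followed by MCM3 with 129 CPM per kb. PCNA had 265 and 186 CPM in KO, against 311 and 229 CPM in control (log2 fold change -0.26, interval -0.93 to 0.41). The first library was the higher one in both groups.

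The 6 subunits of the MCM2-7 helicase, which is loaded at origins and unwinds DNA, had log2 fold changes from -0.12 (MCM6) to 0.10 (MCM3), and all 6 overlapped between groups. MCM3 had 536 and 439 CPM in KO, against 534 and 375 CPM in control. MCM7 had 526 and 413 CPM in KO, against 529 and 451 CPM in control. MCM5 had 438 and 252 CPM in KO, against 420 and 266 CPM in control, so that the difference within each group was far larger than that between them (log2 fold change 0.01, interval -0.78 to 0.79). MCM2 and MCM4 were also higher in the first library of each group, with their lowest level in control 2, whereas MCM6 had 195 and 202 CPM in KO, against 246 and 187 CPM in control. MCM3 had a negative log2 fold change with library size only (-0.010) and with quantile normalisation (-0.027).

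The genes that load the helicase did not move as one. CDC6, which loads MCM2-7 together with CDT1, had 136 and 64.3 CPM in KO, against 150 and 138 CPM in control. All KO values lay below all control values, KO 1 only slightly, and the log2 fold change was -0.52 (interval -1.34 to 0.30). Without KO 1, where KO 2 alone stands for KO, it was -1.15, and without KO 2 it was -0.076. CDT1 went the other way, with 78.6 and 118 CPM in KO, against 78.4 and 73.6 CPM in control (log2 fold change 0.37, interval -0.29 to 1.04). Again KO 2 stood apart and KO 1 was close to control 1. GMNN (geminin), which binds and inhibits CDT1, had 62.9 and 55.3 CPM in KO, against 77.5 and 65.9 CPM in control (log2 fold change -0.28, interval -0.89 to 0.33).

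Of the enzymes that supply nucleotides, the small subunit of ribonucleotide reductase, RRM2, varied most. RRM2, not among the genes that the rule names and picked out from its values, had 203 and 106 CPM in KO, against 166 and 107 CPM in control. Its large subunit RRM1 had 167 and 180 CPM in KO, against 179 and 136 CPM in control. TYMS, thymidylate synthase, had 69.0 and 85.9 CPM in KO, against 73.0 and 58.5 CPM in control. RRM1 and TYMS were thus, like CDT1, higher in KO 2 than in KO 1, as was MCM6. The polymerase subunit POLA1 (log2 fold change -0.01) and the helicase subunit GINS2 (0.06) overlapped between groups.

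**Figure D3:**
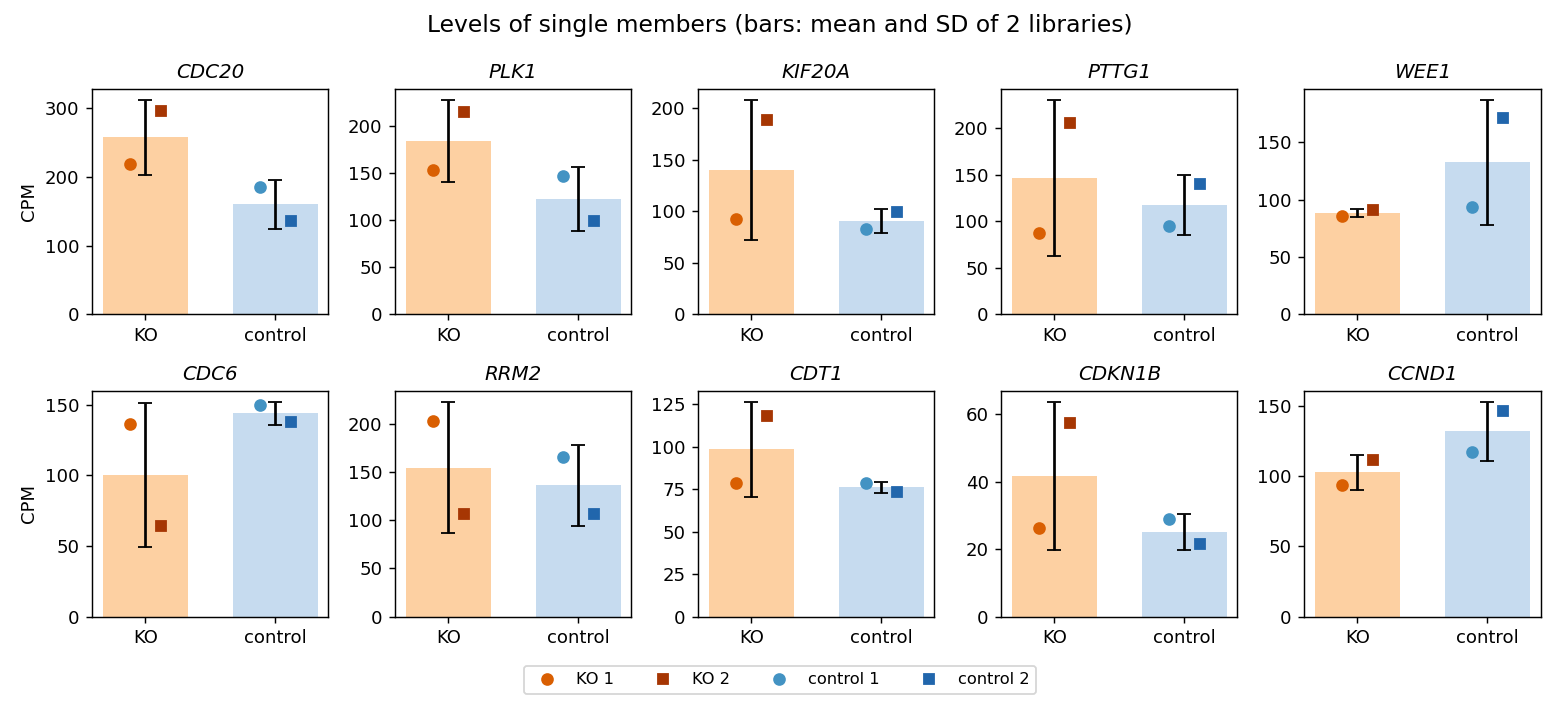
Levels in CPM of 10 members, with a point per library, bars at the mean of 2 libraries and error bars of 1 SD. CDC20 and PLK1 have both KO points above both control points, KIF20A, PTTG1, CDT1 and CDKN1B have only the KO 2 point well above the rest, and CDC6 has only the KO 2 point far below.

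The kinase that starts mitosis, CDK1 with its cyclins, was higher in KO 2. CDK1 had 114 and 197 CPM in KO, against 109 and 113 CPM in control (log2 fold change 0.49, interval -0.23 to 1.20). KO 1 exceeded both controls by a little and KO 2 by far. CCNB1, the main B-type cyclin and the third most abundant mitosis gene with 86.8 CPM per kb, had 219 and 267 CPM in KO, against 221 and 181 CPM in control. CCNB2, likewise picked out from its values, had 94.6 and 184 CPM in KO, against 86.4 and 101 CPM in control. CCNA2, the A-type cyclin of S phase and G2, had 154 and 218 CPM in KO, against 155 and 110 CPM in control.

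The phosphatases and the kinase that set the activity of CDK1 differed in direction. CDC25B, a phosphatase that activates CDK1, had 42.6 and 59.7 CPM in KO, against 41.3 and 35.8 CPM in control. CDC25C had 27.2 and 43.4 CPM in KO, against 25.4 and 27.0 CPM in control. Both had higher values in KO than in any control, with log2 fold changes of 0.41 (interval -0.27 to 1.08) and 0.43 (interval -0.31 to 1.17). WEE1, the kinase that inhibits CDK1, had 85.6 and 90.6 CPM in KO, against 93.8 and 171 CPM in control. Its KO values lay below its control values, although control 1 was close to KO 2 and control 2 was far above all others. The log2 fold change of WEE1 was -0.59 (interval -1.33 to 0.16), and without control 2 it was -0.090.

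Of the mitotic kinases, PLK1 had the second smallest unadjusted p of the mitosis list. It promotes mitotic entry and spindle assembly, and it had 153 and 215 CPM in KO, against 146 and 98.4 CPM in control (log2 fold change 0.59, interval -0.11 to 1.29). AURKB, the kinase of the chromosomal passenger complex, had 92.4 and 112 CPM in KO, against 88.4 and 70.5 CPM in control. AURKA, the spindle pole kinase, and BUB1, a kinase of the spindle checkpoint, overlapped between groups because KO 1 did not exceed both controls. Their log2 fold changes were 0.45 and 0.43. BUB1B, a checkpoint pseudokinase, had one of 0.09.

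CDC20, which activates the anaphase-promoting complex, had the smallest unadjusted p of all members. It had 218 and 296 CPM in KO, against 185 and 135 CPM in control, and no KO value overlapped a control value. Means were 257 ± 55.1 CPM in KO and 160 ± 35.6 CPM in control (SD, n = 2 each). The log2 fold change was 0.68 ± 0.29 (SE, interval 0.02 to 1.35). In edgeR's quasi-likelihood test over all genes its adjusted p was 0.997 (0.0446 unadjusted). CDC20 was the only member whose interval left out 0. It ranged from 0.45 without KO 2 to 0.94 without control 1.

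Other genes of anaphase varied in different ways. UBE2C, the ubiquitin-conjugating enzyme of that complex and the most abundant mitosis gene with 110 CPM per kb, had 116 and 166 CPM in KO, against 147 and 137 CPM in control. KO 1 was the lowest and KO 2 the highest, and the log2 fold change was -0.0043 (interval -0.64 to 0.63). Securin (PTTG1), which holds separase inactive, had 87.2 and 206 CPM in KO, against 94.7 and 141 CPM in control. ESPL1, which encodes separase itself, had 138 and 70.1 CPM in KO, against 88.5 and 63.4 CPM in control. ESPL1 was the only mitosis gene lower in KO 2 than in KO 1, by a log2 difference of -0.98, while PTTG1 had the largest difference in the other direction, 1.24. PTTG1 and ESPL1 were described after their values were seen.

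Genes of chromosomes, kinetochores and the spindle were mostly highest in KO 2 as well. KIF20A, a kinesin of the central spindle, had 92.4 and 189 CPM in KO, against 82.7 and 99.1 CPM in control. Its log2 fold change was 0.63 (interval -0.18 to 1.44). It was 1.07 without KO 1, where KO 2 alone stands for KO, and 0.03 without KO 2. NUSAP1, a spindle microtubule protein, had 109 and 229 CPM in KO, against 118 and 126 CPM in control. KIF20A and NUSAP1 were described after their values were seen. CENPE, the kinetochore kinesin, had 71.3 and 78.5 CPM in KO, against 65.2 and 68.8 CPM in control, a small difference without overlap (log2 fold change 0.16, interval -0.43 to 0.75). CENPF, another kinetochore protein, had 222 and 282 CPM in KO, against 245 and 307 CPM in control. TOP2A, the topoisomerase that untangles chromosomes, had 470 and 755 CPM in KO, against 474 and 534 CPM in control. MKI67, which encodes the proliferation marker Ki-67, and the spindle motor KIF11 had log2 fold changes of 0.31 and 0.14.

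Without KO 1, KO 2 alone stands for the KO group and its variance is borrowed from the controls. The members called there were CDC6, CDKN1B and KIF20A. Their share was near that of all genes and is not read as a result about the members. In that fit 5.31% of all 20642 genes tested were called. Without KO 2, 0 members were called, against 0.927% of all genes, as without control 1 (0.0197%) and without control 2 (0.015%).

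**Figure D4:**
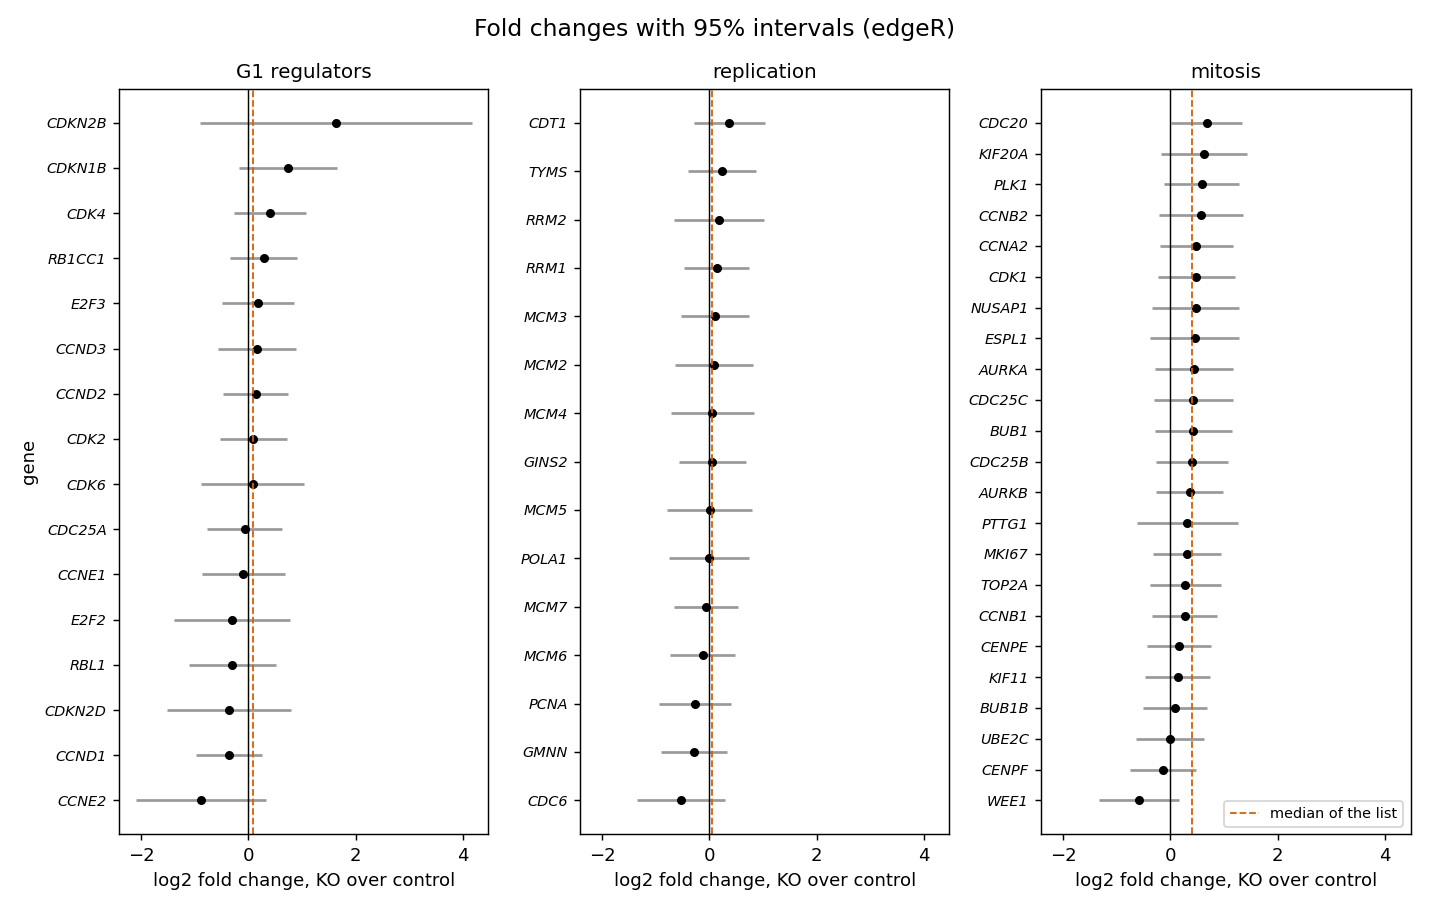
Points are log2 fold changes (KO over control) of the tested members from edgeR with 95% intervals as lines, sorted within each phase list, and the dashed line is the median of the list. Only the interval of CDC20, from 0.02 to 1.35, leaves out 0, and 20 of the 23 mitosis points are above 0.

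The promoters of the phase lists held different words, which is shown because the mitosis and replication genes were ordered differently across the libraries. RefSeq promoter windows (GRCh38.p14, 250 bases before to 50 after an annotated start) matched 46 of the 56 members. The words were searched on both strands, in any window of a gene, and a CCAAT and its reverse may share bases, as in PTTG1. TTTGAA or TTTAAA, forms of the CHR element bound by the MuvB complex in mitotic promoters, was found in 17 of 20 mitosis genes (85%), 2 of 13 replication genes and 3 of 13 G1 regulators, against 27.9% of all 27305 genes with a window. CCAAT, bound by the factor NF-Y, was found in 18 of 20 mitosis genes (90%), 10 of 13 replication genes and 6 of 13 G1 regulators, against 39.7% of all genes. An E2F word (TTTGGCGC, TTTCGCGC or TTTCCCGC) was found in 11 of 13 replication genes (84.6%), 2 of 20 mitosis genes and 4 of 13 G1 regulators, against 3.3% of all genes. Such matches describe letters and not binding, and their relation to the levels across libraries was not tested.

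The windows of the 4 mitosis genes whose KO 2 level most exceeded KO 1 and of the 2 replication genes whose KO 2 level was farthest below KO 1 are printed from 120 bases before to 30 after the start, with the matched words in capitals (ATTGG is CCAAT on the other strand). The mitosis genes PTTG1, NUSAP1, KIF20A and CCNB2 were higher in KO 2 than in KO 1 by log2 differences of 1.24, 1.07, 1.03 and 0.96, and the replication genes CDC6 and RRM2 were lower by differences of -1.08 and -0.93. They were chosen after their values were seen. ESPL1, the mitosis gene that went the other way (-0.98), and the G1 regulators with differences of similar size, CDKN2B (1.44), CCNE2 (-1.12), E2F2 (-1.11), CDKN1B (1.11) and CDK6 (1.07), are not printed.
PTTG1, chr5:160421735-160421884, plus strand: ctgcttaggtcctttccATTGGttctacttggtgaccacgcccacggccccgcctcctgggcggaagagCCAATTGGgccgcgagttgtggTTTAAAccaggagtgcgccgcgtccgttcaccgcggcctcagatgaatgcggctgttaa
NUSAP1, chr15:41332761-41332910, plus strand: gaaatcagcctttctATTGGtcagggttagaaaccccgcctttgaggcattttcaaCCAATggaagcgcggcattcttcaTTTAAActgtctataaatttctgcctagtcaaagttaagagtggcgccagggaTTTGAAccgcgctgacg
KIF20A, chr5:138178992-138179141, plus strand: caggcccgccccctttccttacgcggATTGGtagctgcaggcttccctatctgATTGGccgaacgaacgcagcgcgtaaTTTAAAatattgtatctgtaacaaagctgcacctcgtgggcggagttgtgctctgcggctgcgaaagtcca
CCNB2, chr15:59105026-59105175, plus strand: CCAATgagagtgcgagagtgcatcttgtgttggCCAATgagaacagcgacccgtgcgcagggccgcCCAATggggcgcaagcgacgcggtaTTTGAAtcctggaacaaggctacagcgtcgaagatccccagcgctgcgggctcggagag
CDC6, chr17:40287759-40287908, plus strand: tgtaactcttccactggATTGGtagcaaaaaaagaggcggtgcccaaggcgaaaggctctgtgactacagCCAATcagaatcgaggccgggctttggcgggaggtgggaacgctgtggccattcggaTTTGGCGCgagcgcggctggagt
RRM2, chr2:10122619-10122768, plus strand: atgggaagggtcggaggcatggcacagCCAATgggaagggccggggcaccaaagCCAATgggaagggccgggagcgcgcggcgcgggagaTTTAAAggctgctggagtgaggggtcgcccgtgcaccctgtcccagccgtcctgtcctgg
Each of the 4 mitosis windows held a CHR word and at least 1 CCAAT box. In PTTG1, KIF20A and CCNB2 the CHR word began 29, 41 and 29 bases before the start. In NUSAP1 one began 40 bases before it and another at base 14 after it. The CDC6 window held TTTGGCGC from base 8 after the start and no CHR word, whereas RRM2, a replication gene, held TTTAAA 30 bases before the start.

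Other genes of the same pathways, listed by function and not by how they moved, gave 0 calls too. In 23 of 45 other mitosis genes (51.1%) both KO values exceeded both control values, against 15.8% of all genes, and 0 were lower, against 16.3%. With the other scalings tried 14 to 23 of them (31.1% to 51.1%) were higher, against 10.2% to 16.4% of all genes. Their median log2 fold change was 0.36, and it was 0.13 without KO 2 and 0.59 without KO 1. KO 2 was highest for 36 of 45 (80%), against 33.4% of all genes. Unlike the member list, KO 1 was above both controls for 26 of 45 (57.8%), against 35.0% of all genes, although this difference between the lists was not tested. With upper-quartile factors, library size only and quantile normalisation it was 20 of 45 (44.4%), against 28.4%, 29.4% and 37.3% of all genes. The smallest unadjusted p in this list belonged to CCNF, RACGAP1 and CKAP2. CCNF, a cyclin F-box protein, had 84.1 and 99.2 CPM in KO, against 62.1 and 52.8 CPM in control (log2 fold change 0.67, interval 0.06 to 1.29). RACGAP1, part of the central spindle, had 62.9 and 120 CPM in KO, against 51.4 and 54.7 CPM in control (0.79, interval 0.01 to 1.56). CKAP2, a microtubule protein, had 105 and 135 CPM in KO, against 84.7 and 73.2 CPM in control.

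Of 43 other replication genes, 4 were higher (9.30%, against 15.8% of all genes) and 2 were lower (4.65%, against 16.3%) in both KO libraries, with a median log2 fold change of -0.03. This balance turned round with upper-quartile factors, library size only and quantile normalisation, each of which gave 2 higher (4.65%) and 8 lower (18.6%). Of all genes 11.4%, 10.2% and 16.4% were then higher, and 20.0%, 21.3% and 13.8% were lower. Across libraries, 40 of 43 were lower in control 2 than in control 1, against 49.0% of all genes, and this number was 36, 32 and 33 under those 3 scalings, against 42.4%, 37.9% and 52.4% of all genes. In KO 2, 36 of 43 were lower than in KO 1 (34 to 38 under the other scalings), against 49.9% of all genes. POLD2, a subunit of DNA polymerase delta, had 157 and 156 CPM in KO, against 124 and 94.1 CPM in control. TK1, thymidine kinase, had 81.3 and 82.0 CPM in KO, against 69.5 and 55.1 CPM in control. RFC4, a subunit of the clamp loader, had 59.4 and 54.0 CPM in KO, against 72.6 and 77.1 CPM in control. Their log2 fold changes were 0.52, 0.39 and -0.40, and each interval included 0.

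Of 22 other genes of G1 and the E2F network, 4 were higher (18.2%, against 15.8% of all genes) and 1 was lower (4.55%, against 16.3%) in both KO libraries (median 0.26), so the higher share was near the background. LIN37, a subunit of the MuvB complex, had 3.09 and 5.26 CPM in KO, against 2.65 and 2.62 CPM in control. FOXM1, which activates mitotic genes together with that complex, had 160 and 127 CPM in KO, against 133 and 84.3 CPM in control (log2 fold change 0.40, interval -0.30 to 1.10). Of 16 genes of the anaphase-promoting complex and its regulators, 3 were higher (18.8%, against 15.8% of all genes) and 0 were lower (against 16.3%) in both KO libraries (median 0.08), again a higher share near the background. FZR1 (CDH1), its activator in late mitosis and G1, had 45.5 and 67.1 CPM in KO, against 36.1 and 31.7 CPM in control (log2 fold change 0.73, interval 0.04 to 1.42). CDC27, a core subunit, had 67.6 and 92.3 CPM in KO, against 58.4 and 48.7 CPM in control, while the subunit ANAPC4 had 46.4 and 29.1 CPM in KO, against 56.4 and 43.5 CPM in control.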

How the data were processed

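Per the labels' protocols, total RNA was isolated with Trizol and a TruSeq Stranded mRNA kit was used for the libraries. The authors deposited gene-level counts of reads, not normalised. The submitters' processing notes name STAR (2.6.0a), HTSeq (0.11.0), cutadapt (1.8.1), FastQC (0.11.7) and the build GRCh38, also listed as hg38. The annotation release and strand setting were not given in the sources used here. The labels mention quantile normalisation, which unequal totals show is not in these counts. Reads assigned to no gene (14.4% to 20.3% of counted alignments) were left out of library sizes.

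Gene names, positions and exon lengths came from GENCODE 29 (GRCh38), which matched 93.8% of the identifiers. Exons of 18 members, among them PLK1, KIF20A, CCNA2 and CDK4, overlap a gene on the opposite strand. Those of 5 members, among them NUSAP1 and RRM2, overlap one on the same strand. Reads in either kind of overlap may be split or lost. CPM values use TMM factors. KO was compared with control by edgeR 4.0.16 (R 4.3.3; filterByExpr, minimum count 10; quasi-likelihood F test, robust, legacy off; two-sided; Benjamini-Hochberg over 19027 genes, threshold 0.05). The common dispersion was 0.132. Standard errors are the log2 fold change over the square root of F, and 95% intervals use the model's degrees of freedom. The procedure was tested on simulated data. Replicates differed by a chi-square of 124 per degree of freedom in KO and 54.6 in control, and no pair was counted as 1 sample.

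The members, lists and tests were chosen with earlier results of these data known. Values per library are given for members whose groups did not overlap, for the 3 with the smallest p and the 3 with the highest level per kb in each phase list, for members below the filter, and for the 3 smallest p of each other list. Further members are described without that rule, to account for every member. The alternatives were other scaling factors, filters and tests (DESeq2 1.42.0, limma 3.58.1), the replicate block and each library left out in turn. The counts of mitosis genes without KO 2 and the alternatives for the other gene lists were chosen after seeing the data.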

Additional observations from a re-analysis of the deposited data

How the results depend on the processing

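With 2 libraries a group, an exact permutation test cannot pass 0.05, and genes with few reads, such as the INK4 inhibitors, have wide intervals. The number of genes called over all genes was 5. It was 0 with upper-quartile factors, library size only, a mean CPM of at least 1 and limma-voom, 1 with the legacy fit and with quantile normalisation, 8 with no filter, 52 with DESeq2 and 3 to 1096 with a library left out. Members called numbered 0 to 3 with a library left out and 0 in the other alternatives. Members higher in both KO libraries numbered 9 and members lower numbered 5. The numbers were 4 higher and 7 lower with library size only and also with upper-quartile factors, which turns the balance round. With quantile normalisation they were 4 higher and 5 lower. Among all genes the shares higher and lower moved too, from 15.8% and 16.3% to 10.2% and 21.3% with library size only. These shares were 11.4% and 20.0% with upper-quartile factors, and 16.4% and 13.8% with quantile normalisation. The cause of these differences was not tested.

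The replicate numbers of the groups are not said to mark a shared culture or day. Deviations of same-numbered libraries from their group means correlated over genes with r = 0.366 (genes are not independent replicates). With the replicate block 76 genes and 0 members were called, and the log2 fold change of SLC35F2 was -1.63 (edgeR adjusted p = 0.00736).

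The median of the G1 regulators was -0.053 with library size only and -0.010 with quantile normalisation, and -0.0039 to 0.109 with a library left out. In the same way the replication median ranged from -0.23 to 0.38 and the mitosis median from 0.034 to 0.64. Leaving out a library gave medians of 0.057 to 0.289 for other G1 genes, which had 0.137 with library size only, 0.126 to 0.592 for other mitosis genes and -0.051 to 0.243 for the anaphase-promoting complex. The G1 level against the other libraries was -0.24 in KO 2 and 0.14 in control 2 with library size only, and 0.086 in control 2 with upper-quartile factors. SLC35F2 (log2 fold change -1.65, edgeR adjusted p = 0.58) was called with DESeq2 (-1.65, adjusted p = 0.00954) and ranged from -1.92 to -1.31 with a library left out.

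Signs turned for MCM3 (-0.010) and POU5F1 (-0.025) with library size only, and for MCM3 (-0.027), POU5F1 (-0.051) and LIN28A (-0.0055) with quantile normalisation. With a library left out, log2 fold changes of both signs were found for CDC25A (-0.41 to 0.22), CDKN2B (-1.35 to 3.40), E2F2 (-0.98 to 0.19), ESPL1 (-0.11 to 0.87), MCM3 (-0.13 to 0.39), MCM7 (-0.23 to 0.10), NUSAP1 (-0.16 to 0.92), POU5F1 (-0.36 to 0.45), PTTG1 (-0.43 to 0.83), RRM2 (-0.35 to 0.58), SOX2 (-0.054 to 0.34) and UBE2C (-0.28 to 0.24).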
